A study of Mus musculus with 18 samples.

Results

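The genes described here are 9 genes of the cascade that carries the insulin signal into the cell: Pik3ca, Pik3r1, Pdpk1, Akt1, Akt2, Tsc2, Rps6kb1, Foxo1 and Foxo3. They were taken as a named list, by symbol, and the list was chosen with earlier results of these data known. All 9 were among the 53090 genes of the deposited count table and all 9 were among the 19284 genes with enough reads to be tested. They were measured by RNA-seq in beta cells, the insulin-secreting cells of the pancreatic islet, from mice of 2 genotypes on 2 diets. LIRKO mice lack the insulin receptor in the liver, so the receptor is not deleted in the cells measured. Ctrl stands for the control genotype, and HFD is read here as high-fat diet. The 4 groups were Ctrl on chow (6 libraries), Ctrl on HFD (5), LIRKO on chow (4) and LIRKO on HFD (3). Islets of all groups were kept in culture overnight, dispersed with trypsin and DNase, and sorted by light scatter and the cells' own fluorescence. The labels give no strain, sex, age, time on diet, driver of the deletion or number of animals per library. A p-value here can only speak of how libraries vary, and part of that variation may be technical.

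Binding of insulin or IGF to its receptor recruits phosphoinositide 3-kinase, whose lipid product brings the kinases PDK1 and AKT to the membrane, where PDK1 phosphorylates AKT. Active AKT inhibits TSC2, which releases mTOR complex 1 to activate S6 kinase and protein synthesis, and it keeps the FoxO transcription factors out of the nucleus. In beta cells this cascade is known for its part in cell growth, survival and replication. These steps run largely through phosphorylation, which RNA levels do not measure.

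Libraries held 19490235 to 51714775 counted reads, and a member had between 815 and 8238 reads in a library. Values are counts per 1000000 reads (CPM) on library sizes scaled by the trimmed mean of M-values (TMM). Beta cell identity was checked with 10 markers, among them Ins1, Ins2, Iapp and Pdx1, none of which was at 0 in all libraries, and which together took 99830 to 234136 CPM. Of these markers 9 of 10 had a log2 change below 0 both in LIRKO on chow (median -0.57, 1 passed) and on HFD in Ctrl (median -0.47, 3 passed), and the mean of Mafa, a beta cell transcription factor, was 64.0 CPM in Ctrl chow, 17.4 in Ctrl HFD, 28.7 in LIRKO chow and 6.09 in LIRKO HFD. Ctrl HFD replicates 1 and 2 stood apart, with 1.37% and 1.06% of reads from the nuclear RNA Malat1 against 0.0866% to 0.600% in the other libraries. LIRKO chow replicates 1 and 2 were nearly alike, as were replicates 3 and 4. The median absolute deviation of the log2 ratio within these pairs (scaled like an SD) was 0.0899 and 0.105 over 10978 genes. Any other pair within a group had 0.173 or more. The summed level of 9 endothelial markers was 36.3 to 196 CPM in Ctrl chow, 151 to 292 CPM in Ctrl HFD, 17.7 to 177 CPM in LIRKO chow and 245 to 298 CPM in LIRKO HFD. Summed macrophage markers (8 genes) stood at 119 to 196, 135 to 266, 99.7 to 161 and 199.9 to 233 CPM in the same order. In bulk samples fewer cells of a type and less RNA per cell cannot be told apart. Of the endothelial markers 2 passed as higher on HFD in Ctrl and 1 in LIRKO. Among the macrophage markers 1 fell in LIRKO on chow and 2 rose on HFD in LIRKO. Alpha cell markers (6 genes) summed to 424 to 1874, 465 to 4269, 409 to 2029 and 483 to 3638 CPM in the same order. Ductal markers (5 genes) summed to 930 to 1374, 770 to 1084, 1016 to 1207 and 872 to 1066 CPM. In each of these 2 lists 1 gene passed, higher in LIRKO on chow. Summed delta cell markers (3 genes) stood at 139 to 883, 113 to 303, 169 to 218 and 123 to 175 CPM in the order of groups above. Of these 3, Hhex was at 0 in every library. The other 2, Sst and Rbp4, had a median log2 change of -1.16 in LIRKO on chow and -0.91 on HFD in Ctrl, and neither passed. Mesenchymal markers (6 genes) summed to 0.895 to 13.2, 7.24 to 65.5, 0.624 to 10.5 and 14.4 to 24.1 CPM in the 4 groups, and none passed. The 2 markers of PP cells summed to 261 to 1937, 298 to 1594, 127 to 394 and 378 to 977 CPM in the same order, and 1, Pyy, fell in LIRKO on chow (adjusted p = 0.0301, edgeR). The part of these shifts in the differences below was not tested.

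Of the 9 genes, 2 passed the test in any comparison. Rps6kb1, which encodes S6 kinase 1, rose in LIRKO against Ctrl on chow, and Akt1 fell in Ctrl mice on HFD against chow. Each passed by a small margin, at an adjusted p of 0.0494 for Rps6kb1 and 0.0493 for Akt1 against a threshold of 0.05 (edgeR quasi-likelihood test, Benjamini-Hochberg over all genes tested). For LIRKO against Ctrl on chow, 1 of 9 members passed where 5.15% of all tested genes did. For HFD against chow in Ctrl, 1 of 9 passed where 9.93% of all genes did. None passed between LIRKO and Ctrl on HFD (0.508% of all genes passed), between HFD and chow in LIRKO (2.03%), or in the genotype by diet interaction (0.00519%). Read against those shares, the counts are not a result about these 9 genes. At an unadjusted p under 0.05 there were 3, 0, 4, 2 and 1 members in the 5 comparisons, in the order LIRKO against Ctrl on chow, the same on HFD, HFD against chow in Ctrl, the same in LIRKO, and the interaction. The members' median log2 change was -0.02, -0.13, -0.22, -0.16 and -0.19 in that order, and that of all tested genes -0.02, -0.04, 0.04, 0.03 and -0.02. DESeq2, run as an alternative test, called 2 members on chow, 2 for diet in Ctrl and none in the other 3 comparisons, where 8.55% of all genes passed by DESeq2 on chow and 20.5% for diet in Ctrl.

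**Figure D1:**
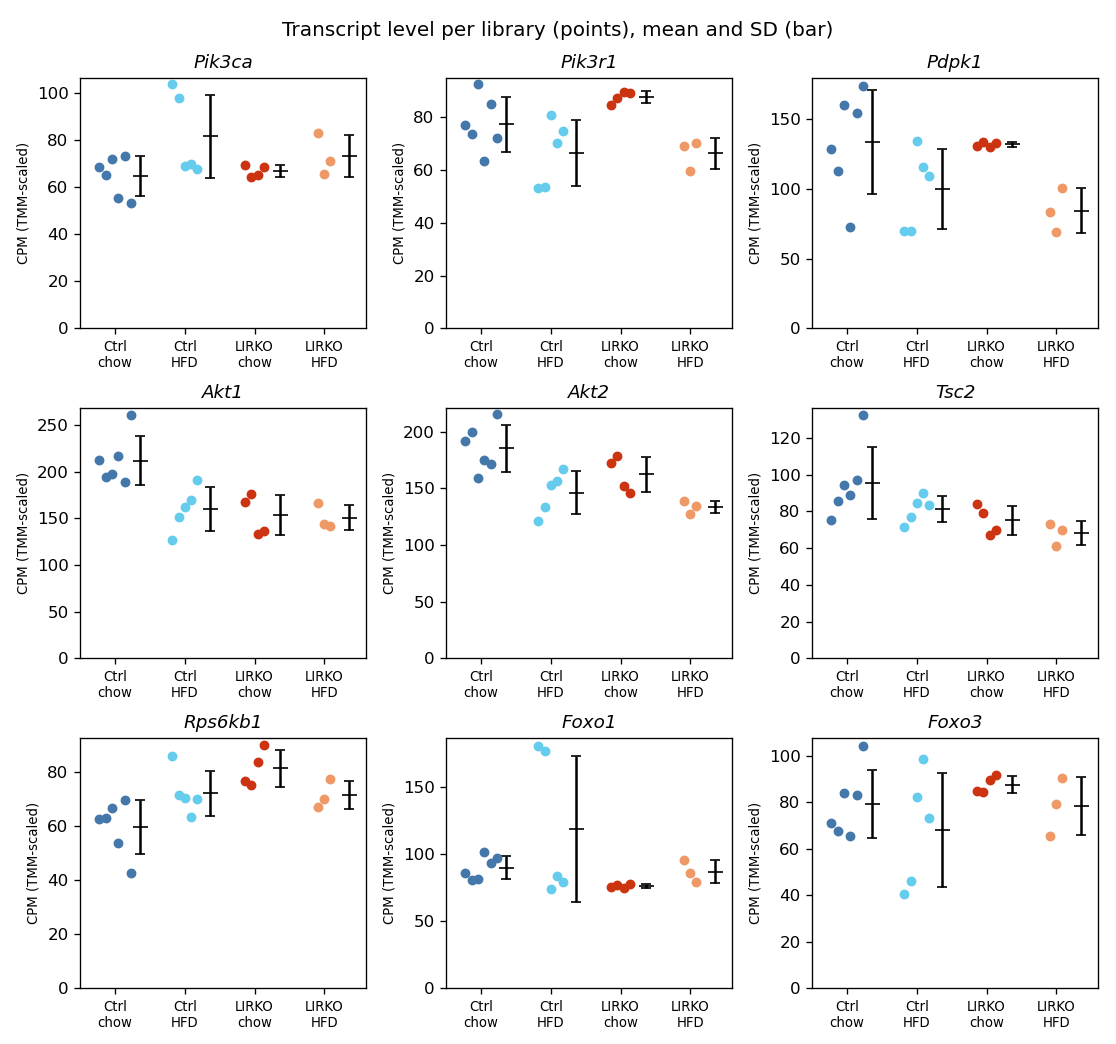
Level of each of the 9 genes (y axis, CPM on TMM-scaled library sizes) in every library, by group (x axis), with the group mean and SD as a bar. Rps6kb1 in all 4 LIRKO chow libraries lies above the 6 Ctrl chow libraries, and in the Ctrl HFD column Foxo1, Foxo3 and Pik3ca each split into replicates 1 and 2 and the other 3.

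Levels between genes can be set side by side only per length. Over all libraries and per kilobase of the gene's merged exons, Akt1 had the highest level at 42.5 CPM per kb and Akt2 came next at 22.5. The other 7 lay closer together, from 10.9 for Foxo1 to 7.42 for Pik3r1. On that scale Akt1 stood at the 95.3rd percentile of all tested genes and Pik3r1 at the 69.4th. Per kilobase of the longest transcript Akt1 (64.8) and Akt2 (35.4) again came first, while the other 7 changed places between 16.2 (Pdpk1) and 8.001 (Pik3ca). From the lowest to the highest group the means of a member spanned from 1.26-fold for Pik3ca to 1.58-fold for Pdpk1. When the 4 groups were put in order of their mean for each gene, the libraries of 26 of 27 neighbouring pairs overlapped. The exception was Foxo1, where all LIRKO HFD libraries lay above all LIRKO chow libraries. Neighbours in this order have the closest means, so overlap was favoured in advance, and the share over all genes was not computed. Overlap in the planned comparisons is given below.

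AKT1 (Akt1, ENSMUSG00000001729, GRCm38 chr12:112653821-112674884, minus strand) and AKT2 (Akt2, ENSMUSG00000004056, chr7:27591552-27640826, plus strand) are serine/threonine kinases at the centre of the cascade, and AKT2 is the isoform most tied to glucose metabolism. In Ctrl chow the level of Akt1 ran from 189 to 261 CPM with a median of 205. The Ctrl HFD libraries had 127, 152, 162, 170 and 191 CPM, so that only replicate 5 reached into the range of Ctrl chow. LIRKO chow had 168, 176, 134 and 136 CPM, which splits into the near-alike pairs, and all 4 lay below every Ctrl chow library. LIRKO HFD had 166, 144 and 142 CPM, within the range of LIRKO chow. The means were 212 ± 26.4 (SD, n = 6), 160.2 ± 23.5 (n = 5), 153 ± 21.7 (n = 4) and 151 ± 13.4 CPM (n = 3), so that Ctrl chow stood above the other 3 groups, which lay close together.

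In Ctrl mice Akt1 fell on HFD by 0.40 on the log2 scale (SE 0.12, 0.757-fold, adjusted p = 0.0493, edgeR). In LIRKO against Ctrl on chow the log2 change was -0.46 (SE 0.13) with an adjusted p of 0.0503, just past the threshold on the other side. Both comparisons share the Ctrl chow libraries. The fall of Akt1 in LIRKO on chow passed by DESeq2 (adjusted p = 0.00894). In edgeR it passed with DESeq2 size factors (0.04996) and without both Ctrl HFD libraries that stood apart (0.0217). It did not pass with no filter on low counts or with LIRKO chow pairs summed, and passed in 2 of 18 fits with 1 library left out. LIRKO against Ctrl on HFD gave -0.09 (adjusted p = 0.929) and HFD against chow in LIRKO gave -0.03 (adjusted p = 0.943). The diet call for Akt1 was absent without the 2 Ctrl HFD libraries that stood apart (-0.24, adjusted p = 0.267). With only the 2 groups compared in the fit it was also absent (-0.37, adjusted p = 0.122, edgeR). Nor did Akt1 pass with no filter on low counts (0.0996), LIRKO chow pairs summed (0.0739) or DESeq2 size factors (0.0502). When 1 library at a time was left out the diet call held in 4 of 18 fits. Those were the fits without Ctrl chow replicate 4 and without Ctrl HFD replicate 3, 4 or 5.

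Akt2 lay between 159 and 216 CPM in Ctrl chow, with a median of 183. In Ctrl HFD it had 121, 133, 153, 157 and 167 CPM, in LIRKO chow 172, 178, 152 and 146 CPM, and in LIRKO HFD 139, 128 and 134 CPM. The Ctrl HFD values overlapped those of Ctrl chow in replicate 5 alone, and all 3 LIRKO HFD libraries lay below the 4 LIRKO chow libraries. The log2 change on HFD was -0.34 in Ctrl (SE 0.11, adjusted p = 0.0541) and -0.28 in LIRKO (SE 0.14, adjusted p = 0.320), neither past the threshold. By DESeq2 the change in Ctrl passed (-0.32, adjusted p = 0.0130). With 1 library left out of the edgeR fit it passed in 4 of 18 fits, but not without both Ctrl HFD libraries that stood apart. For genotype it was -0.19 on chow (adjusted p = 0.406) and -0.13 on HFD (adjusted p = 0.869).

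Rps6kb1 (ENSMUSG00000020516, chr11:86498871-86544805, minus strand) encodes S6 kinase 1, which mTOR complex 1 activates and which phosphorylates ribosomal protein S6. In Ctrl chow it ran from 42.7 to 69.8 CPM with a median of 62.98. LIRKO chow had 76.8, 75.3, 83.7 and 90.2 CPM, all above the highest Ctrl chow library. Ctrl HFD had 86.0, 71.5, 70.5, 63.4 and 70.2 CPM and LIRKO HFD 67.2, 70.3 and 77.4 CPM, and these 2 groups overlapped fully. The rise in LIRKO on chow was 1.36-fold (log2 change 0.44, SE 0.13, adjusted p = 0.0494, edgeR), from 59.9 ± 9.94 (SD, n = 6) to 81.5 ± 6.86 CPM (n = 4). On HFD the genotypes differed by -0.01 (adjusted p = 0.992). The difference between these 2 genotype effects, the interaction, was -0.46 (SE 0.19, adjusted p = 0.867, edgeR), so that a difference between diets was not shown. HFD against chow gave 0.27 in Ctrl (adjusted p = 0.120) and -0.19 in LIRKO (adjusted p = 0.543).

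The rise of Rps6kb1 did not pass when each near-alike LIRKO chow pair was summed into 1 library (0.44, adjusted p = 0.336), nor with no filter on low counts (0.0950). For LIRKO against Ctrl on chow with only the 2 groups compared in the fit, Rps6kb1 did not pass (0.0546) and Akt1 did (0.0398). With 1 library at a time left out Rps6kb1 passed in 3 of 18 fits, with adjusted p from 0.0366 to 0.189 over the 18. Those were the fits without Ctrl chow replicate 5 and without Ctrl HFD replicate 1 or 4. Rps6kb1 shares 155 bases with Rnft1 on the other strand, whose log2 change on chow was 0.31 (SE 0.15, adjusted p = 0.289); the strand setting of the counting is not given in the sources used here.

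Akt1 and Rps6kb1 moved in opposite directions across the libraries. Over all 18 libraries Pearson's r of their log2 CPM was -0.88 and Spearman's rho -0.88. Within groups, after subtracting each group's mean, r was -0.83, and without Ctrl HFD replicates 1 and 2 it was -0.87. Ctrl chow replicate 6 had the highest Akt1 and the lowest Rps6kb1 of all libraries, at 261 and 42.7 CPM. Akt2 and Tsc2 sided with Akt1 (r 0.86 and 0.81) and ran against Rps6kb1 (r -0.65 and -0.76). Pik3r1 and Pdpk1 formed another pair, with r 0.86 (0.79 without the 2 libraries that stood apart). The negative r of Foxo1 and Foxo3 (-0.84) shrank to -0.29 without those 2 libraries. These coefficients describe libraries that share depth, scaling and base composition, and they carry no test.

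**Figure D2:**
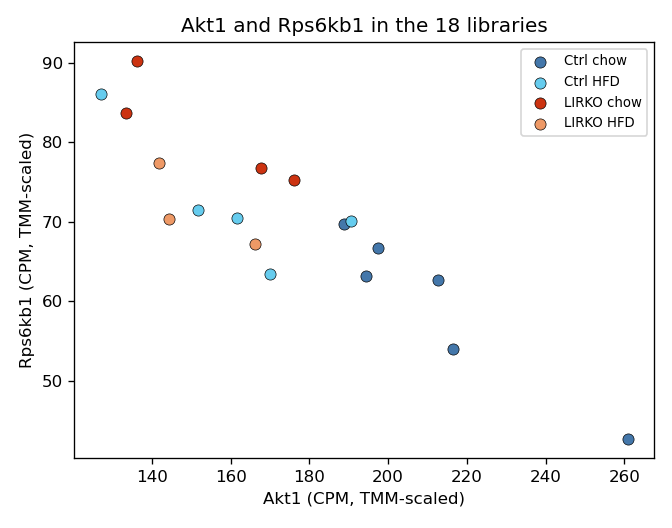
Akt1 (x axis) against Rps6kb1 (y axis), both in CPM on TMM-scaled library sizes and not starting at 0, in the 18 libraries coloured by group. The points fall from upper left to lower right within and across groups, with r -0.88 of the log2 values.

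The genes with the levels most like those of Akt1 over the 18 libraries were Kif1c, a kinesin motor (r 0.97), Kcnj11, the pore subunit of the ATP-sensitive potassium channel of beta cells (0.96), and Jrk (0.96), out of 11221 genes compared. For Akt2 they included Taf5l (0.95) and Coro1c (0.95). For Rps6kb1 they were Bclaf1 (0.88), Abhd18 (0.86) and Napb (0.84). Without Ctrl HFD replicates 1 and 2 the coefficients given here lay between 0.83 and 0.97, but the order changed. Kif1c then ranked 3, Kcnj11 12 and Jrk 16 for Akt1. For Akt2 Coro1c ranked 4 and Taf5l 9, and for Rps6kb1 Bclaf1 ranked 2, Abhd18 11 and Napb 14.

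Because Akt1 and Rps6kb1 ran opposite to each other, the 250 bases before their annotated starts are shown, from RefSeq on GRCm38.p6, 5′ to 3′ on the gene's strand. RefSeq gives Akt1 2 starts, printed here as entries 1 and 2. Entry 1 (chr12:112674885-112675134, minus strand, 52.0% GC) holds a match to the forkhead motif GTAAACA, which FoxO factors are known to bind. The match is on the other strand at position -161, in capitals. Entry 2 (chr12:112674277-112674526, 78.4% GC) lies inside the annotated gene and holds none, while entry 1 adjoins its start. The Rps6kb1 window (chr11:86544808-86545057, minus strand, 52.8% GC) holds 6 matches to CGCATG on either strand, in capitals, of which the last 2 overlap.
Akt1 entry 1: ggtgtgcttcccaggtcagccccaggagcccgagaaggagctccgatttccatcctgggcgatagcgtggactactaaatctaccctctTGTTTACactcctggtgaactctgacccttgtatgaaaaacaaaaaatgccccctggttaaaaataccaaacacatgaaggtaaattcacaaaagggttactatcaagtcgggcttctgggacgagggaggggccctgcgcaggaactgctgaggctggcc
Akt1 entry 2: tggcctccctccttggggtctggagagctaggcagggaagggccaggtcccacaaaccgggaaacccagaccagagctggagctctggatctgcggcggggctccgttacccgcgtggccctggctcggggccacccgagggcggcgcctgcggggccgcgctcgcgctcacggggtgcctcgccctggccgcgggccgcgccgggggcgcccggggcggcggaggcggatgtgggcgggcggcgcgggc
Rps6kb1: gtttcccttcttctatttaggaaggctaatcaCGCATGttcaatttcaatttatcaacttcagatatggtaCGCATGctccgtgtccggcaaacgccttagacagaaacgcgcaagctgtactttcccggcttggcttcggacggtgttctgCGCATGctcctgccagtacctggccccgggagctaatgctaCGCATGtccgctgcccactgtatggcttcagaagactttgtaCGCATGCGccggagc
Both motifs were chosen after the sequences had been seen. Searched on both strands in windows of the same length, GTAAACA was in 3.17% of 32851 RefSeq promoters and CGCATG in 5.46%, with 4 or more matches in 0.137%. CGCATG is part of the palindromic NRF1 motif, which was in 0.782% of promoters and which the Rps6kb1 window does not contain in full. Nothing in these data measures binding there.

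Base composition was set beside these differences. The longest transcript of Rps6kb1 had the lowest GC content of the 9 genes (39.2%) and that of Akt1 the highest (59.7%). In LIRKO against Ctrl on chow, the 527 expressed genes within 1 percentage point of Rps6kb1's GC content had a median log2 change of 0.04 and the 456 genes like Akt1 one of -0.15, against 0.44 and -0.46 for the genes themselves. In Ctrl on HFD the trend ran the other way, with a median of -0.22 for genes like Rps6kb1 and 0.11 for genes like Akt1, while Rps6kb1 and Akt1 themselves were at 0.27 and -0.40, against that trend. The slope of log2 level on GC content, per 10 percentage points, was 0.31 and 0.32 in Ctrl HFD replicates 1 and 2, -0.16 to -0.11 in LIRKO chow and -0.19 to 0.24 in Ctrl chow. With offsets adjusted for GC content, an alternative added after seeing the data, Rps6kb1 on chow was at 0.41 (adjusted p = 0.131) and Akt1 on HFD in Ctrl at -0.47 (adjusted p = 0.0354). For diet in Ctrl those offsets also brought Rps6kb1 and Pik3ca past the threshold.

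**Figure D3:**
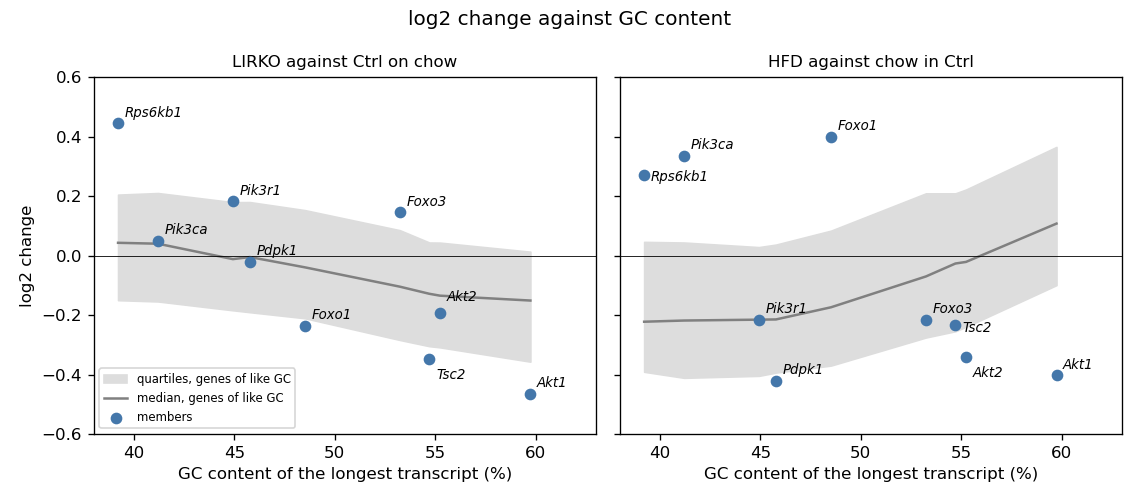
Log2 change of the 9 genes (y axis) against the GC content of their longest transcript in percent (x axis), for genotype on chow and for diet in Ctrl. The grey line and band are the median and quartiles of expressed genes within 1 percentage point of each member's GC content. On chow 6 of the 9 lie outside the band (Pik3r1, Akt1, Tsc2, Rps6kb1, Foxo1 and Foxo3). Rps6kb1 and Akt1 lie farthest, and Pik3r1 is barely outside (0.182 against 0.180). Because the band ends at the quartiles, many genes of like GC content lie outside it too, and the count is not a result about the members. The line slopes the other way for diet in Ctrl.

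Upstream of AKT, Pik3ca (ENSMUSG00000027665, chr3:32397671-32468486, plus strand) encodes the catalytic p110 alpha subunit of phosphoinositide 3-kinase and Pik3r1 (ENSMUSG00000041417, chr13:101680563-101768217, minus strand) its p85 alpha regulatory subunit. Pik3ca lay between 53.2 and 73.4 CPM in Ctrl chow, with a median of 67.0. In Ctrl HFD it had 104 and 98.0 CPM in replicates 1 and 2 and 69.0, 70.0 and 67.8 CPM in the other 3, which are within the Ctrl chow range. LIRKO chow (69.3, 64.5, 65.3 and 68.6 CPM) and LIRKO HFD (82.9, 65.5 and 71.3 CPM) overlapped. The log2 change on HFD in Ctrl was 0.34 (SE 0.13, adjusted p = 0.0870) and 0.13 (adjusted p = 0.515) without replicates 1 and 2. In the other 3 pairwise comparisons it lay between -0.16 and 0.13.

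Pik3r1 was at 63.2 to 92.7 CPM in Ctrl chow (median 75.3), at 53.3, 53.5, 80.7, 70.3 and 74.9 CPM in Ctrl HFD, at 84.7, 87.3, 89.5 and 89.2 CPM in LIRKO chow and at 68.9, 59.7 and 70.3 CPM in LIRKO HFD. All 3 LIRKO HFD libraries lay below the LIRKO chow libraries. The log2 change there was -0.40 (SE 0.16, adjusted p = 0.200). Its SD was 2.19 CPM in LIRKO chow and 10.3 CPM in Ctrl chow. The LIRKO chow libraries form near-alike pairs, so these SDs cannot be compared directly.

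Pdpk1 (ENSMUSG00000024122, chr17:24073680-24150924, minus strand) encodes PDK1. It varied most among the Ctrl chow libraries, from 73.1 to 174 CPM with a median of 142. Ctrl HFD had 70.0, 70.2, 134, 116 and 109 CPM, LIRKO chow 131, 134, 130.3 and 133 CPM, and LIRKO HFD 83.9, 69.0 and 101 CPM. As with Pik3r1, the 3 LIRKO HFD libraries were below the 4 LIRKO chow libraries, with a log2 change of -0.64 (SE 0.26, adjusted p = 0.225). The change on HFD in Ctrl was -0.42 (SE 0.21, adjusted p = 0.157). When only LIRKO libraries entered the fit, Pdpk1 (adjusted p = 0.0140) and Pik3r1 (adjusted p = 0.0183) passed for HFD against chow, as did 18.8% of all genes in that fit. With the near-alike LIRKO chow pairs summed, 7 genes passed in that comparison and no member. Between the diets in LIRKO 4 of 9 members did not overlap, where 34.4% of all genes did not: Foxo1 lay higher on HFD (16.1% of all genes) and Pik3r1, Pdpk1 and Akt2 lower (18.3%).

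Tsc2 (ENSMUSG00000002496, chr17:24595816-24632630, minus strand) encodes tuberin, the GTPase-activating part of the complex that AKT inhibits. In Ctrl chow it lay between 75.01 and 132 CPM (median 91.7), and in Ctrl HFD at 71.4, 76.6, 84.5, 89.9 and 83.7 CPM. LIRKO chow had 84.0, 79.2, 67.3 and 69.7 CPM and LIRKO HFD 73.3, 60.9 and 70.0 CPM. The LIRKO libraries sat low beside the controls on the same diet and overlapped them. The log2 change in LIRKO was -0.35 on chow (SE 0.14, adjusted p = 0.163) and -0.26 on HFD (adjusted p = 0.735). Tsc2 shares 693 bases with Pkd1 on the other strand, whose change on chow was 0.11 (adjusted p = 0.902).

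FOXO1 and FOXO3 are the transcription factors that AKT holds in the cytoplasm, and FOXO1 is known to restrain replication and to guard identity in beta cells. Foxo1 (ENSMUSG00000044167, chr3:52268336-52353221, plus strand) lay between 81.2 and 102 CPM in Ctrl chow, with a median of 90.0. In Ctrl HFD replicates 1 and 2 had 181 and 177 CPM and the other 3 had 73.9, 83.9 and 79.5 CPM. LIRKO chow had 76.0, 77.2, 74.96 and 78.0 CPM, all below Ctrl chow, and LIRKO HFD had 96.1, 85.9 and 79.3 CPM, all above LIRKO chow. The log2 change in LIRKO on chow was -0.24 (SE 0.22, adjusted p = 0.612). On HFD in Ctrl it was 0.40 (SE 0.21, adjusted p = 0.176), and -0.15 (adjusted p = 0.361) without replicates 1 and 2, so that its sign rests on those 2 libraries.

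Foxo3 (ENSMUSG00000048756, chr10:42181841-42276755, minus strand) was low where Foxo1 was high: Ctrl HFD replicates 1 and 2 had 40.5 and 46.2 CPM and the other 3 had 82.2, 98.6 and 73.2 CPM. Ctrl chow ran from 65.3 to 104 CPM (median 77.1), LIRKO chow was at 84.6, 84.2, 89.7 and 91.7 CPM, and LIRKO HFD at 65.4, 79.0 and 90.5 CPM. Every pair of groups compared overlapped. The log2 change of Foxo3 lay between -0.22 and 0.20 in the 4 pairwise comparisons, with adjusted p of 0.437 or more, and for HFD in Ctrl it turned from -0.22 to 0.14 without replicates 1 and 2.

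On chow 3 of the 9 members, Akt1, Foxo1 and Rps6kb1, did not overlap between LIRKO and Ctrl, where 11.7% of all genes did not. Rps6kb1 lay higher in LIRKO, as did 6.46% of all genes, and Akt1 and Foxo1 lower, as did 5.21%. On HFD none of the 9 was free of overlap between the genotypes, against 5.01% of all genes (2.51% higher and 2.5% lower in LIRKO). In Ctrl none was free of overlap between the diets, against 3.56% (1.43% higher and 2.13% lower on HFD).

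**Figure D4:**
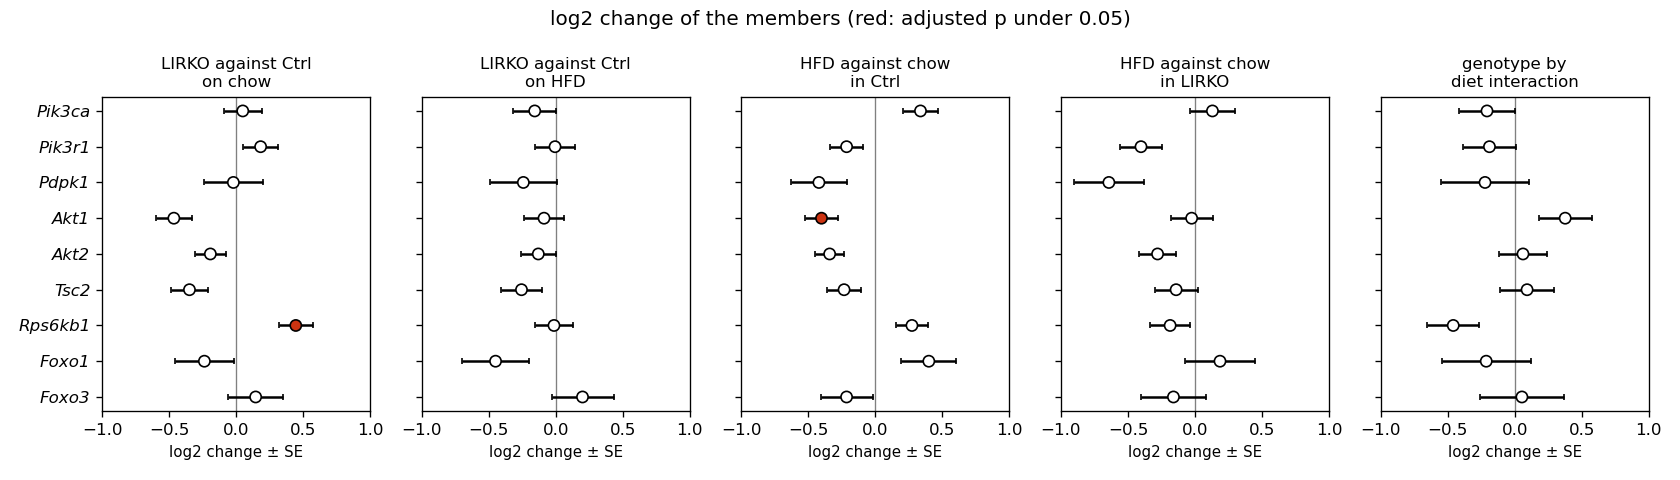
Log2 change of the 9 genes (points) with 1 SE on either side (lines) in the 5 comparisons, 1 per panel, with the genes in order of their role. Red points mark the 2 that passed, Rps6kb1 for genotype on chow at 0.44 and Akt1 for diet in Ctrl at -0.40.

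The rest of the pathway was taken from 4 lists with 85 further genes, of which 79 were tested. For LIRKO against Ctrl on chow 6 rose and 1 fell, against 2.95% and 2.2% of all genes. On HFD 1 rose and none fell (0.316% and 0.192% of all genes). Diet in Ctrl moved 4 up and 3 down (5.57% and 4.35%), and diet in LIRKO 1 up and 1 down (1.06% and 0.975%). The interaction called none. The lists' median log2 change was -0.05, 0.02, -0.10, -0.08 and 0.03 in the 5 comparisons. Of 13 listed partner genes 11 were tested, and the only one to pass was Irs2, on chow. The other 10, among them Tsc1, Rheb and Insr, lay between -0.34 (Mtor) and 0.65 (Rictor) on chow, and between -0.56 and 0.12 for diet in Ctrl, with no adjusted p under 0.0742 in any comparison. Pik3r2 and Rps6kb2 were listed at 0 in every library. On the other strand Pik3r2 overlaps 6330537M06Rik, and Rps6kb2 overlaps Coro1b and Ptprcap. Whether the 0 reflects absent transcripts or the way reads were assigned to overlapping genes was not tested.

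None of the 16 tested PI3K subunits and phosphatases and none of the 14 tested AKT partners passed in LIRKO on chow, where 5.15% of all genes did. Among 26 tested FoxO relatives and targets, 4 rose and 1 fell in LIRKO on chow, against 2.95% and 2.2% of all genes. The lists were not tested against each other. Irs2, the adaptor that links the insulin and IGF receptors to phosphoinositide 3-kinase and a known FoxO target, ran from 17.7 to 37.9 CPM in Ctrl chow (median 28.7) and had 61.2, 62.4, 66.5 and 71.0 CPM in LIRKO chow. All 4 lay above Ctrl chow, a 2.34-fold rise (log2 change 1.23, SE 0.25, adjusted p = 0.00807, edgeR). In Ctrl HFD Irs2 had 24.9, 20.6, 40.0, 50.7 and 32.0 CPM and in LIRKO HFD 28.2, 46.7 and 54.7 CPM, which overlapped. Foxo6, a FoxO family member best known from neurons, fell by 0.75 (SE 0.15, adjusted p = 0.00501), from 21.9 ± 3.75 (SD, n = 6) to 13.0 ± 0.987 CPM (n = 4). Ccng2, a cyclin-like gene that FoxO factors are known to induce, rose by 0.78 (adjusted p = 0.0301), and Txnip, the thioredoxin inhibitor that responds to glucose in beta cells, by 0.70 (adjusted p = 0.0287). Pck1, the gluconeogenic enzyme and a FoxO target in liver, also passed but at very low levels, with 1 read in all 6 Ctrl chow libraries together and 0.424 to 1.68 CPM in LIRKO chow.

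Of these calls on chow, Irs2, Foxo6 and Pck1 held in all 18 fits that left out 1 library. With GC-adjusted offsets Foxo6 did not pass (-0.49, adjusted p = 0.107). Ccng2 lost its call without Ctrl chow replicate 2 (adjusted p = 0.0696) or 4 (0.0598) and LIRKO chow replicate 3 (0.143) or 4 (0.114). Txnip lost it without Ctrl chow replicate 1 (0.0576), 2 (0.0662), 4 (0.0561) or 6 (0.0538) and LIRKO chow replicate 3 (0.122) or 4 (0.113). With the near-alike LIRKO chow pairs summed, Pck1 was the only pathway gene left past the threshold (adjusted p = 0.108 for Irs2 and 0.111 for Foxo6). Summed endothelial markers were 17.7 and 21.8 CPM in LIRKO chow replicates 1 and 2 and 177 and 151 CPM in replicates 3 and 4. Ccng2 was at 40.6, 40.4, 67.5 and 64.0 CPM in the same order. Summed alpha cell (411, 409, 1857 and 2029 CPM), PP cell (144, 127, 394 and 325) and macrophage markers (99.9, 99.7, 161 and 145) split the same way. Acinar cell (198, 250, 51.4 and 23.4 CPM) and beta cell markers ran the other way. Members also split by pair: Rps6kb1 was at 76.8, 75.3, 83.7 and 90.2 CPM, and Pik3r1 and Foxo3 split the same way by less. Akt1 (168, 176, 134 and 136 CPM), Akt2 (172, 178, 152 and 146) and Tsc2 (84.0, 79.2, 67.3 and 69.7) ran the other way. The part of any of these cells in the differences of Ccng2 or of the members was not tested.

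In the TSC, mTOR and S6 kinase list (23 tested), 2 genes rose in LIRKO on chow, as did 2.95% of all genes. Eef2k, the kinase of elongation factor 2 that S6 kinase is known to inhibit, rose from 26.8 ± 2.61 (SD, n = 6) to 36.3 ± 2.04 CPM (n = 4), by 0.44 (adjusted p = 0.0183). Its call was lost without LIRKO chow replicate 1 (adjusted p = 0.0651) or 2 (0.0507), and with no filter on low counts (0.0638). Ddit4, which encodes REDD1, an inhibitor of mTOR complex 1, rose by 0.49 (adjusted p = 0.0266) from 119 ± 20.1 to 167 ± 19.0 CPM, and lost its call without Ctrl chow replicate 3 (0.0555), 5 (0.0530) or 6 (0.0576) or LIRKO chow replicate 3 (0.115) or 4 (0.0684), and with no filter (0.0590). In Ctrl on HFD Ddit4 fell by 0.43 (adjusted p = 0.0402) to 88.3 ± 6.83 CPM (n = 5), and Eif4e, the cap-binding factor of translation, fell by 0.64 (adjusted p = 0.0315) from 119 ± 21.9 to 76.6 ± 17.9 CPM. All 5 Ctrl HFD libraries lay below Ctrl chow for both.

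**Figure D5:**
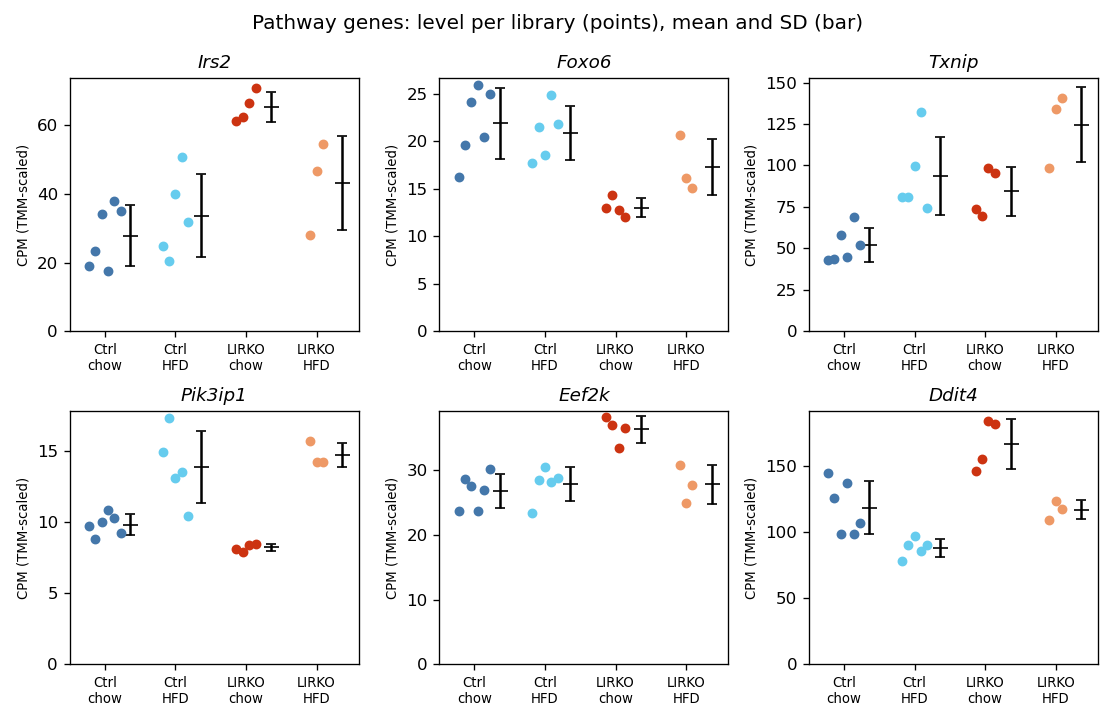
Level in CPM on TMM-scaled library sizes (y axis, from 0) of 6 further pathway genes in every library by group (x axis), with mean and SD. Irs2, Eef2k and Ddit4 were higher and Foxo6 lower in the 4 LIRKO chow libraries than in the 6 Ctrl chow libraries, and Pik3ip1 was higher in LIRKO HFD than in LIRKO chow.

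On HFD Pik3ip1, which encodes a membrane protein that binds and inhibits the p110 subunit, was the only pathway gene called in both genotypes. In Ctrl it rose by 0.49 (SE 0.12, adjusted p = 0.0317), from 9.83 ± 0.739 (SD, n = 6) to 13.9 ± 2.53 CPM (n = 5), and in LIRKO by 0.84 (SE 0.15, adjusted p = 0.00945), from 8.22 ± 0.249 (n = 4) to 14.7 ± 0.866 CPM (n = 3). The call in LIRKO held in all 18 fits without 1 library, but not with the near-alike LIRKO chow pairs summed (0.84, adjusted p = 0.172). Trib3, a pseudokinase that binds AKT, fell in LIRKO on HFD by 0.87 (adjusted p = 0.0167), from 214, 230.1, 232 and 217 CPM to 101, 141 and 124 CPM. It lost its call without LIRKO chow replicate 1 (0.0540) or 2 (0.0617) or LIRKO HFD replicate 1 (0.0919) or 3 (0.0663), and with the pairs summed (0.188). In Ctrl on HFD Txnip rose by 0.85 (adjusted p = 0.0200), Sgk1, a kinase related to AKT, rose by 0.95 (adjusted p = 0.0359), Gsk3a, a kinase that AKT inhibits, fell by 0.39 (adjusted p = 0.0393), and Pck1 passed at 0.0792 to 0.724 CPM. With Pik3ip1, Eif4e and Ddit4 these make 7 calls. On HFD Pck1 was also the 1 pathway gene past the threshold between the genotypes (adjusted p = 0.0453), at 0.581, 4.12 and 3.66 CPM in LIRKO, a call that held in 3 of 18 fits without 1 library, those leaving out Ctrl HFD replicate 2 or 4 or LIRKO HFD replicate 1. The 7 calls for diet in Ctrl rested on single libraries: all 7 were lost without Ctrl chow replicate 1 (adjusted p 0.0539 to 0.0891) or 6 (0.0544 to 0.0888), 6 without Ctrl chow replicate 2 (0.0514 to 0.0738) or Ctrl HFD replicate 2 (0.0504 to 0.0935), and 5 without Ctrl HFD replicate 1 (0.0917 to 0.115). Leaving out Ctrl chow replicate 5, Ctrl HFD replicate 4, LIRKO chow replicate 1 or 3, or LIRKO HFD replicate 3 ended 1 or 2 of them, with adjusted p of 0.0506 to 0.0526. Without both Ctrl HFD libraries that stood apart Txnip was the 1 pathway gene past the threshold (adjusted p = 0.0472). Endothelial markers were also higher on HFD, as given above, and Kdr, Pecam1 and other defining markers were above 0 in these libraries; their part in the diet changes was not tested.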

How the data were processed

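RNA-seq libraries of sorted mouse beta cells were grouped by genotype and diet from the labels; replicate numbers only name libraries. The deposited values are counts, whole reads per Ensembl gene, made by the authors with STAR and featureCounts on GRCm38, per the submitters' processing notes; no tool version, annotation or strand option is given in the sources used here. GENCODE M21 (GRCm38) gave a symbol for 52489 of the 53090 IDs. Genes were filtered with filterByExpr (19284 kept), scaled by TMM and fitted with edgeR 4.0.16 in R 4.3.3 (glmQLFit, glmQLFTest) over all 18 libraries with 1 coefficient per group, since the smallest group has 3 libraries. Tests are two-sided, adjusted by Benjamini-Hochberg within each comparison over all genes, with a threshold of 0.05; the interaction subtracts the LIRKO against Ctrl change on chow from that on HFD. Correlations use log2 CPM with a prior count of 2, among genes with a mean log2 CPM of at least 2. The test was also run on simulated counts with 200 changed genes. Those counts were drawn independently, without near-alike pairs or libraries that stood apart, so they cannot show how the test holds for these data. Named genes are the 9 members, 13 fixed partners, pathway genes past the threshold (at most 4 per list and direction) and the 3 genes most like each of the 3 members with the smallest p; a few of these are not reported here. The members and lists were chosen with earlier results of these data known. Alternatives were DESeq2 1.42.0 and its size factors, no filter, only the groups compared, LIRKO chow pairs summed, libraries left out, and GC-adjusted offsets.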

Additional observations from a re-analysis of the deposited data

Results flagged for a closer look

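In 21 genes and 63 groups of 4 or more libraries checked for a single value far from the others, 3 were found. The rule's nominal rate by chance is about 1 in 20 groups, which was not measured here. In Ctrl chow, replicate 2 had Pck1 at 0.0293 CPM, which is 1 read, with the other 5 libraries at 0. Gsk3a was at 100.1 CPM in Ctrl chow replicate 6, with the other 5 between 80.0 and 83.8 CPM. Sgk1 was at 25.8 CPM in Ctrl chow replicate 3, with the other 5 between 13.6 and 16.9 CPM.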

How the results depend on the processing

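The 5 comparisons follow the order used above (genotype on chow, genotype on HFD, diet in Ctrl, diet in LIRKO, interaction). All genes passing numbered 457 (diet in Ctrl) and 250 (diet in LIRKO) with no filter on low counts; 1649, 316, 3959, 1059 and 42 with DESeq2; 1653, 19, 1 and 3403 with only the groups compared; 193, 54, 114, 7 and 0 with the LIRKO chow pairs summed; 1765, 193, 34, 1191 and 8 without both Ctrl HFD libraries that stood apart; and 3 for the interaction with GC-adjusted offsets. The main counts were 993, 98, 1914, 392 and 1. Leaving out 1 library gave 431 to 1126, 10 to 162, 69 to 3877, 55 to 502 and 0 to 3. Pathway genes passing numbered 2 for diet in Ctrl with no filter; 2, 15 and 10 for genotype on HFD and diet in Ctrl and in LIRKO with DESeq2; 0, 0 and 18 there with only the groups compared; 1, 0, 2 and 0 with pairs summed; 1 and 9 for diet in Ctrl and in LIRKO without both Ctrl HFD libraries; and 4 to 7, 0 to 1, 0 to 13 and 1 to 4 with 1 library left out. Members passing on chow were 2 with DESeq2 size factors, with DESeq2 and without both Ctrl HFD libraries, and 0 with no filter, with pairs summed and with GC-adjusted offsets. For diet in Ctrl they were 2 with DESeq2, 3 with GC-adjusted offsets and 0 with DESeq2 size factors, no filter, only the groups compared, pairs summed and without both Ctrl HFD libraries; for diet in LIRKO 2 with only the groups compared. With 1 library left out they were 0 to 2 on chow and 0 to 3 for diet in Ctrl. The changes in calls and signs were not traced to a cause: the cause was not tested.

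Some signs turned, in results near 0 and, without both Ctrl HFD libraries, also in larger ones (Foxo1 from -0.45 for genotype on HFD and from 0.40 for diet in Ctrl, Foxo3 and Pik3r1 each from -0.22 for diet in Ctrl). Pik3r1 on HFD became 0.00519 (DESeq2 size factors), 0.0148 (no filter) and 0.00429 (DESeq2); Pdpk1 on chow 0.00802 and Rps6kb1 on HFD 0.0240 (no filter). Without both Ctrl HFD libraries Pdpk1 on chow was 0.0122, and for genotype on HFD Pik3ca was 0.0877, Foxo1 0.14, Foxo3 -0.11 and Rps6kb1 0.0759. For diet in Ctrl Pik3r1 was then 0.00484, Foxo1 -0.15 and Foxo3 0.14, and in the interaction Pik3ca 0.00720, Akt2 -0.0931, Foxo1 0.34, Foxo3 -0.29 and Tsc2 -0.0258. GC-adjusted offsets gave 0.0384 for Akt1 on HFD and 0.00808 for Rps6kb1 in LIRKO by diet. With 1 library left out the ranges that crossed 0 were -0.11 to 0.0478 (Akt1, diet in LIRKO), -0.0118 to 0.12 (Akt2, interaction), -0.0826 to 0.23 (Foxo3, interaction), -0.15 to 0.0679 (Pdpk1, chow), -0.00167 to 0.0883 (Pik3ca, chow), -0.0740 to 0.0734 (Pik3r1, HFD), -0.0678 to 0.0579 (Rps6kb1, HFD) and -0.0229 to 0.17 (Tsc2, interaction). No paired analysis was possible because the labels give no replicate numbers. Members had 815 reads or more in every library. Counting error was not set against the spread between libraries. In LIRKO chow that spread was small for some members, with an SD of 1.20% of the mean for Pdpk1 and 1.77% for Foxo1. These libraries form near-alike pairs, so such an SD may understate the spread between separate samples.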
